A study of Mus musculus with 24 samples.

Results

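The rows of a miRNA isoform table were compared between 12 h and 0 h of chase in 3T9 cells, an immortalised line of mouse fibroblasts, and each row was compared with the other isoforms of the same miRNA. A row is a mature miRNA together with an isoform class, so the canonical form of miR-155-5p and its templated 3' extension are separate rows. The comparison used 6 of the 24 libraries: 3 at 0 h and 3 at 12 h, paired by experiment number. All 6 came from cells given 300 µM 4-thiouridine (4SU) for a 3 h pulse, with a chase in 1 mM uridine of 0 h or 12 h. The 0 h libraries thus had no chase time. All 6 hold RNA that was biotinylated through 4SU and captured on streptavidin. No genotype or further treatment is named in the labels, and a single cell line was used. Of 6056 rows in the table, 3932 had a count in at least 1 of the 6 libraries. After a filter on low counts, 1257 rows of 370 miRNAs were tested on their own, and 1179 rows of 292 miRNAs were tested against their other isoforms. The filter and the spread behind both tests came from all 21 labelled libraries, at 7 time points, and not from the 6 alone.

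4SU is a uridine analogue built into RNA while it is made. The captured pool at 0 h is meant to hold RNA made in the pulse, and the pool at 12 h what is left of it. The counts do not give the amount of that RNA. Rises and falls of single rows and of sums are therefore relative to the rest of the library. A capture from unlabelled cells still gave 283922 counts, so the captured pools can also hold unlabelled RNA. Mature miRNAs are cut from hairpins by Drosha and Dicer, loaded into Argonaute, and found with ends that differ by a few bases. The 5' end sets the seed, the stretch that pairs with targets, while the 3' end can be shortened by exonucleases or lengthened by terminal nucleotidyltransferases, which mostly add A or U. Templated bases continue the hairpin and non-templated bases do not. The table separates canonical rows, trimmed rows, templated extensions at the 3' or 5' end, and 3' additions of A, U (T in the table), C, G or a mixture of bases. How these classes were defined could not be read from the labels or the file.

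The sequences below are the mature forms in RefSeq (GRCm38.p6) of miRNAs described in detail here, chosen as examples of each kind of change, with the seed (bases 2 to 8) in capitals. RefSeq held 245 of the 292 miRNAs tested against their other isoforms.
miR-125b-1-3p: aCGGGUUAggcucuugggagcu
miR-155-5p: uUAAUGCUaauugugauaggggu
miR-21a-3p: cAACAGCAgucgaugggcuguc
miR-149-5p: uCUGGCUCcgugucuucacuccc
miR-322-5p: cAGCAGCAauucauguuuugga
miR-301a-3p: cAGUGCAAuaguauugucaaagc
miR-29a-3p: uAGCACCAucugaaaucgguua
miR-92a-3p: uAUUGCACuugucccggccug
The next miRNAs are shown because they share seeds and each had rows called against their other isoforms: miR-99a-5p and miR-99b-5p share ACCCGUA, and miR-125a-5p and miR-125b-5p share CCCUGAG.
miR-99a-5p: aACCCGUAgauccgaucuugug
miR-99b-5p: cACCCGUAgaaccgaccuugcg
miR-125a-5p: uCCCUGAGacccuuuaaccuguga
miR-125b-5p: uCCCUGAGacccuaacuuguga

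Isoforms of the same miRNA moved apart between 0 h and 12 h in 67 miRNAs. Against the other isoforms of their miRNA, 72 rows were higher at 12 h and 57 were lower, together 129 of 1179 or 10.9% (6.11% higher and 4.83% lower; edgeR's quasi-likelihood test with the experiment as a block, adjusted p under 0.05). The quantity tested was the log2 odds, log2 of the row's counts over the counts of all other rows of that miRNA, which needs no scaling between libraries. The change had the same sign in all 3 experiments for 123 of the 129 rows. The calls were made on these same experiments, so this is no separate support. Among all 1179 rows, 254 rose and 222 fell in all 3 experiments. In 32 miRNAs some rows rose and others fell; 24 had only higher and 11 only lower rows. Rows of a miRNA are not independent, and in the 74 miRNAs with 2 tested rows both carry nearly the same result. Of the 67 miRNAs, 42 were not called when their rows were summed, where 40 of 414 sums were higher (9.66%) and 50 lower (12.1%; 21.7% in all). With the spread taken from only the 6 libraries at 0 h and 12 h, 43 of 1000 rows were called. Without the experiment block 19 rows were called, and a second edgeR test (diffSpliceDGE) called 22. Leaving out experiment 1 gave 42 calls and leaving out experiment 3 gave 39.

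**Figure D1:**
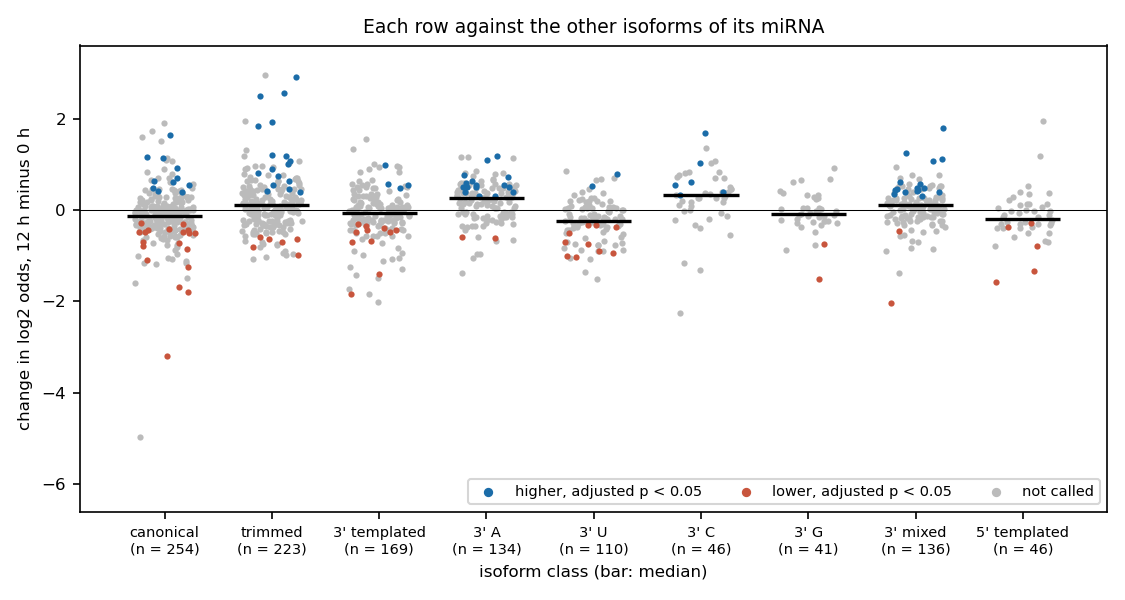
Change in log2 odds of each tested row against the other isoforms of its miRNA (12 h minus 0 h), by isoform class, with n rows per class. Blue and red points have an adjusted p under 0.05 and bars are class medians; 3' A rows have 16 blue and 2 red points and 3' U rows 2 blue and 10 red, while the lowest point, miR-1306-3p canonical, was not called.

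Among the miRNAs with single rows called in opposite directions, the widest gap was in miR-125b-1-3p, the passenger strand of a miR-125b hairpin at chromosome 9, 41581980 to 41582001, plus strand (GRCm38), within introns of the noncoding genes 3110039I08Rik and Gm49317 and an exon of the sense-intronic transcript Gm28119. Its canonical row held 80.2, 69.1 and 78.3% of the miRNA's counts at 0 h in experiments 1 to 3 and 59.1, 34.9 and 49.9% at 12 h. Its trimmed row held 15.3, 26.3 and 18.3% at 0 h and 36.3, 61.3 and 47.1% at 12 h. The 3 values at 0 h and the 3 at 12 h did not overlap in either row. The canonical row fell by 1.8 in log2 odds (SE 0.126, adjusted p = 1.74e-10) and the trimmed row rose by 1.93 (SE 0.129, adjusted p = 1.33e-10). On the TMM scale for single rows the canonical row fell by 1.52 on the log2 scale (SE 0.152, adjusted p = 5.71e-08), while the trimmed row was 0.43 higher (SE 0.131, adjusted p = 0.0226), a call lost under 10 of 20 other settings. The U-added row went from 2.44 ± 0.539% to 1.31 ± 0.406% (SD, n = 3) of the miRNA, a change of -0.89 in log2 odds, and the A-added row from 1.27 to 1.86%, a change of 0.55 (adjusted p = 0.00492). The sum over all rows of this miRNA fell by 0.81 on the log2 scale (adjusted p = 6.3e-05).

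In total RNA, which holds old and new molecules alike, the canonical row of miR-125b-1-3p took 72.8% in unlabelled cells and 73.4% in 4SU-treated cells. In the negative extraction, a capture from unlabelled cells, it took 54.4% (768 counts) and the trimmed row 42.6% (601 counts), near the 12 h values. The part of captured unlabelled RNA in this change was not tested.

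miR-155-5p, a miRNA induced in inflammation, changed its isoforms while its sum did not pass the test. It lies in an exon of Mir155hg at chromosome 16, 84714143 to 84714165, plus strand (GRCm38). The hairpin continues past the mature end with 3 U, shown in capitals:
miR-155-5p with the next hairpin bases: uuaaugcuaauugugauagggguUUU
A templated extension of this miRNA therefore adds U, so a U added without template cannot be told apart from it by letters alone. The extended row held 52.8, 62.2 and 60.8% of the counts at 0 h and 30.8, 35.1 and 38.1% at 12 h. The canonical row held 29.6, 21.8 and 22.9% at 0 h and 46.0, 37.2 and 41.8% at 12 h. In all 3 experiments the extended row was the larger at 0 h and the canonical row the larger at 12 h. The changes were -1.40 in log2 odds for the extended row (SE 0.128, adjusted p = 2.95e-08) and 1.13 for the canonical row (SE 0.12, adjusted p = 4.52e-07), and both calls held under every one of 16 other settings. The sum changed by 0.04 on the log2 scale (adjusted p = 0.873). As single rows they went opposite ways as well, -0.77 (adjusted p = 0.000501) and 0.75 (adjusted p = 0.000308). The A-added row rose from 0.915 to 2.07% (1.09 in log2 odds, adjusted p = 0.0138) on 10 counts at 0 h and 11 at 12 h in experiment 2. In the negative extraction the extended row took 42.4% on 25 counts, and in total RNA 45.8 and 35.5%.

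Rows called in opposite directions as single rows, each with a mean of at least 10 CPM (counts scaled to a common library total), were found in 4 miRNAs: miR-125b-1-3p, miR-155-5p, miR-222-5p and miR-6539. In miR-222-5p, the passenger strand of miR-222, the exchange was between 5' ends. The row with templated bases at its 5' end held 47.5, 50.8 and 49.8% at 0 h and 19.3, 40.5 and 27.0% at 12 h, and the canonical row 22.1, 26.4 and 22.8% at 0 h and 46.3, 36.7 and 39.8% at 12 h. The 5'-extended row was the larger in all 3 libraries at 0 h and in only experiment 2 at 12 h. The log2 odds changed by -1.33 (SE 0.251, adjusted p = 0.000961) and 1.17 (SE 0.218, adjusted p = 0.000817), and the sum by 0.10 (adjusted p = 0.718). These 2 odds calls were lost under 3 and 2 of 16 other settings, each time without experiment 1 and without experiment 3 among them. As single rows they were lost under 7 and 3 of 20. In total RNA the 5'-extended row took 46.9 and 49.6% and the canonical row 24.9 and 23.2%. miR-6539 shifted from its canonical row, 15.1 ± 3.12% to 6.77 ± 0.892%, to its trimmed row, 84.2 ± 3.15% to 92.7 ± 0.587% (SD, n = 3). Its trimmed row changed by 1.21 in log2 odds (adjusted p = 8.13e-05). As a single row its canonical form had an adjusted p of 0.0497, and that call was lost under 12 of 20 other settings.

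**Figure D2:**
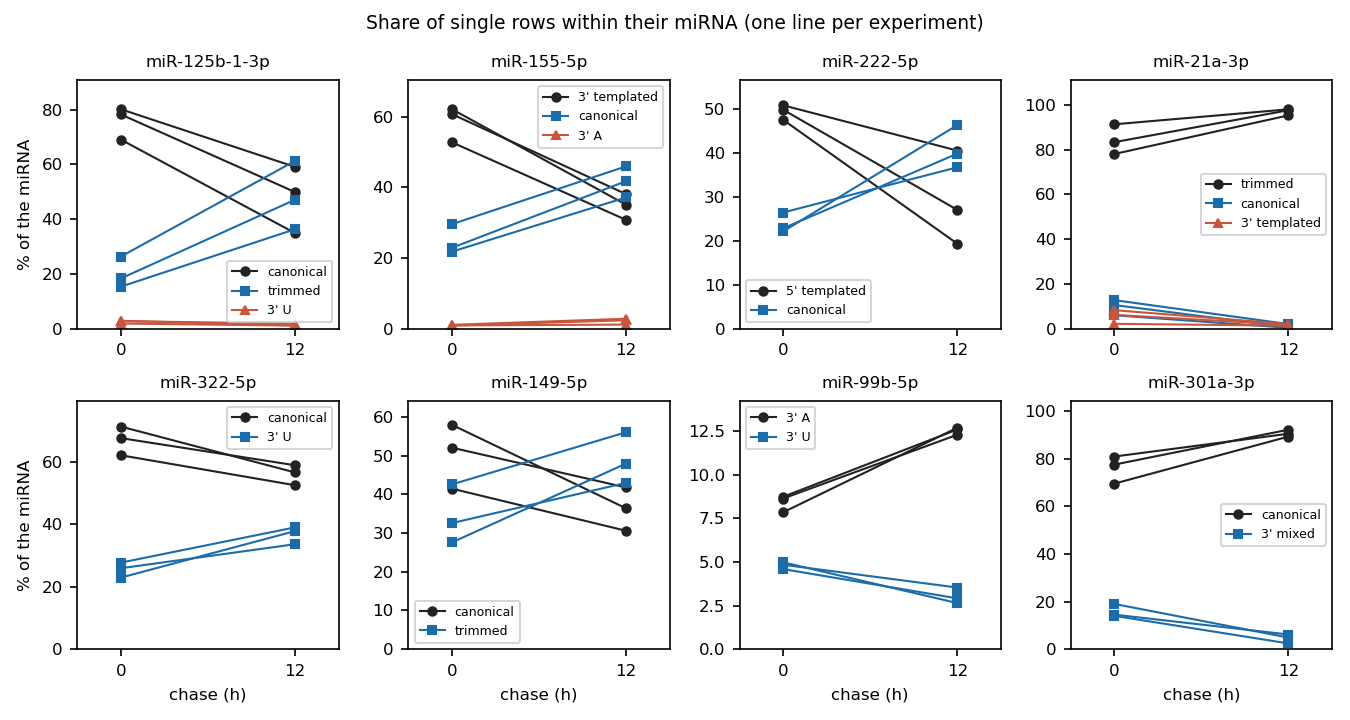
Share (%) of single rows within their miRNA at 0 h and 12 h of chase, with a line for each of the 3 experiments, in 8 miRNAs. Within miR-125b-1-3p the canonical share falls and the trimmed share rises in every experiment, and canonical and 3'-extended rows cross in miR-155-5p in all 3 experiments.

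More trimmed rows were called higher than lower, at shares near those of all rows. Of 223 trimmed rows tested against the other isoforms, 17 were higher (7.62%, against 6.11% of all rows) and 6 lower (2.69%, against 4.83%) at 12 h, with a median change of 0.10 in log2 odds, against -0.00 over all 1179 rows. Canonical rows went the other way, with 11 higher (4.33%) and 19 lower (7.48%) of 254 (median -0.13). Without experiment 1 the trimmed counts were 8 higher and 3 lower and the canonical counts 3 and 6; without experiment 3 they were 5 and 3, and 3 and 4. In the 207 miRNAs with both rows tested, the trimmed row had the higher log2 fold change in 128 (61.8%), and the median gap was 0.13. The median gap was 0.08, 0.10 and 0.10 in experiments 1 to 3, computed on log2 ratios of counts with a pseudocount of 0.5.

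Several of the trimmed rows that rose belong to passenger strands. miR-21a-3p, opposite the abundant miR-21a-5p, lies in an exon of Vmp1 at chromosome 11, 86584082 to 86584103, minus strand. Its trimmed row held 78.1, 83.4 and 91.4% at 0 h and 95.4, 97.7 and 98.1% at 12 h, without overlap. The change was 2.56 in log2 odds (SE 0.372, adjusted p = 5.88e-05). That call was lost under 2 of 15 other settings, without the block (adjusted p = 0.117) and with diffSpliceDGE (adjusted p = 0.913). Its canonical row went from 9.71 to 0.951% of the miRNA, a change of -3.19 (adjusted p = 4.21e-05), on 215 counts at 0 h and 14 at 12 h over the 3 libraries of each time. In miR-214-5p the trimmed row went from 6.35 to 13.1% (1.19, adjusted p = 0.0138) and the canonical row changed by -1.10 (adjusted p = 0.0258), a call lost under 10 of 16 other settings. miR-92a-1-5p, whose sum fell by 2.51 on the log2 scale, shifted from canonical (-1.68, adjusted p = 0.0276) to trimmed (1.83, adjusted p = 0.0186), and its trimmed row had 3 counts at 12 h in experiment 2. The canonical call was lost under 10 of 15 other settings, and leaving out experiment 3 at 12 h gave -0.47 (adjusted p = 0.767).

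Trimmed rows of major arms, those with more counts in total RNA, rose too. miR-149-5p lies in an intron of Gpc1, which encodes the proteoglycan glypican 1. Its trimmed row held 42.6, 32.6 and 27.6% at 0 h and 56.1, 43.0 and 48.0% at 12 h. Every 12 h value was above every 0 h value, with 42.6 and 43.0% at the border. The canonical row held 41.5, 52.1 and 58.0% and then 30.6, 41.8 and 36.4%. The 2 total RNA libraries differed from each other here. The trimmed row took 35.7% in unlabelled cells and 56.8% in 4SU-treated cells, and the canonical row 48.2 and 28.2%. The trimmed row rose by 0.91 in log2 odds (SE 0.137, adjusted p = 7.59e-05) and by 1.30 as a single row (adjusted p = 1.01e-06), while the canonical row had a log2 fold change of 0.29 that did not pass the test (adjusted p = 0.251). The odds call of the trimmed row was lost under 2 of 16 other settings, without the block (adjusted p = 0.259) and with diffSpliceDGE (adjusted p = 0.106). The canonical row was called lower in log2 odds, a call lost under 3 of 16. miR-335-3p, in an intron of the imprinted gene Mest, had its trimmed row at 17.4 ± 3.11% and then 27.2 ± 4.36% (SD, n = 3), a change of 0.74 (adjusted p = 0.00946). That call was lost under 6 of 16 other settings, among them leaving out experiment 3 at 0 h (0.60, adjusted p = 0.066), experiment 2 at 12 h (0.57, adjusted p = 0.0507) or experiment 3 at 12 h (0.70, adjusted p = 0.0543). miR-574-5p, a minor arm from an intron of Fam114a1, gained share in its trimmed row, which went from 73.7 ± 4.78% to 83.3 ± 3.35% (0.81, adjusted p = 0.000532), although as single rows both fell, by 0.47 and by 1.39 on the log2 scale.

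In the miR-125 guides the trimmed rows fell. The trimmed row of miR-125a-5p held 46.6, 39.7 and 46.3% at 0 h and 34.8, 25.4 and 33.7% at 12 h, a change of -0.80 in log2 odds (SE 0.153, adjusted p = 0.000961). Its canonical row rose from 51.5 to 62.2% (0.64, adjusted p = 0.00328). The trimmed row of miR-125b-5p, which has the same seed, held 12.1, 10.7 and 11.2% and then 7.92, 7.28 and 7.58%, a change of -0.64 (SE 0.117, adjusted p = 0.000786). In both miRNAs every 12 h value was below every 0 h value, and total RNA was lower still, at 25.7 and 21.5% for miR-125a-5p and 5.86 and 4.74% for miR-125b-5p. The other trimmed rows that fell were those of miR-99a-5p, miR-322-3p, miR-191-5p and miR-21a-5p. In miR-99a-5p the canonical rise that went with this fall was lost under 13 of 16 other settings.

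Among the rows called against their other isoforms, most of those with an added A were higher and most of those with an added U were lower. Of 134 A-added rows, 16 were higher and 2 lower at 12 h against the other isoforms (11.9% and 1.49%, against 6.11% and 4.83% of all rows; median 0.26). Of 110 U-added rows, 2 were higher and 10 lower (1.82% and 9.09%; median -0.23). Without experiment 1 the counts were 9 higher and 0 lower for A, and 1 and 2 for U; without experiment 3 they were 7 and 0 for A, and 1 and 3 for U. Without the block 3 A-added rows rose and 2 U-added rows fell, and diffSpliceDGE called 3 A-added rows higher and 1 lower and 1 U-added row lower. The medians stayed between 0.19 and 0.28 for A and between -0.24 and -0.14 for U under these settings and without experiment 2. By the last base of the mature sequence in RefSeq, the A-added rows had a median of 0.40 after A, 0.26 after G and 0.27 after U, but 0.04 after C, where 0 of 20 were called. The U-added rows had a median of 0.02 after C, against -0.18 after A, -0.29 after G and -0.23 after U. After C the median was -0.10 in mixed rows and 0.36 in C-added rows.

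Within a miRNA the A-added row gained on the U-added row in most cases. Of 89 miRNAs with both rows tested, 71 (79.8%) had the higher log2 fold change in the A-added row, with a median gap of 0.39 (quartiles 0.03 and 0.71). The median gap was 0.48, 0.52 and 0.30 in experiments 1 to 3, where 73, 59 and 62 of the 89 miRNAs had the A-added row gaining. The A-added row was also above the canonical row in 93 of 130 miRNAs (median 0.30). The U-added row was above the canonical row in 44 of 104 (median -0.09), and by experiment that median was -0.19, -0.06 and 0.01, so the U-added row lost on the canonical row in experiments 1 and 2 only.

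**Figure D3:**
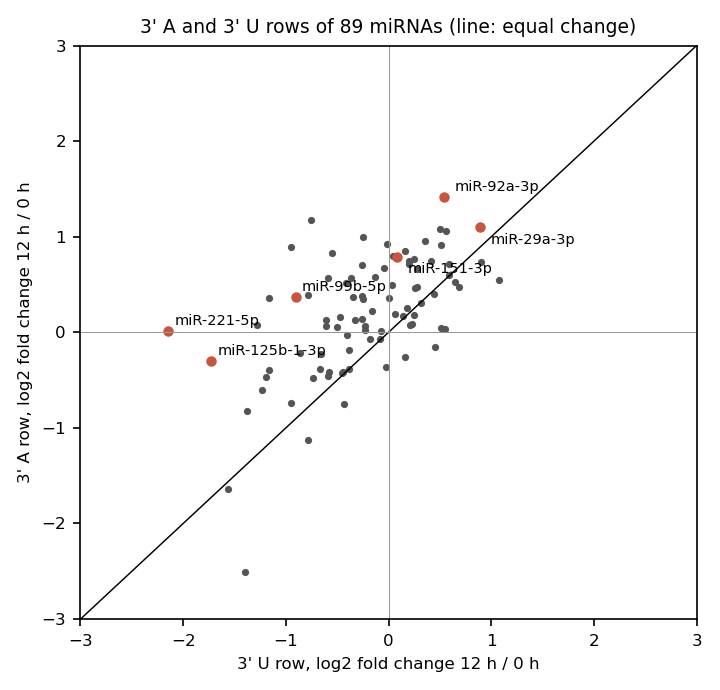
Log2 fold change from 0 h to 12 h of the 3' A row (vertical axis) against that of the 3' U row (horizontal axis) in 89 miRNAs, on the TMM scale. Points above the line, 71 of 89, have the higher value in the 3' A row; red points are named miRNAs.

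miR-99b-5p showed both changes in 1 miRNA. It shares the hairpin cluster of let-7e and miR-125a and lies in an intron of Spaca6 at chromosome 17, 17830194 to 17830215, plus strand. Its U-added row held 4.98, 4.84 and 4.59% at 0 h and 2.64, 3.53 and 2.91% at 12 h, and its A-added row rose from 8.41 to 12.5%. No 12 h value of the U-added row reached a 0 h value. The changes were -0.71 (SE 0.102, adjusted p = 5.81e-05) and 0.64 (adjusted p = 7.59e-05), while the sum changed by -0.16 (adjusted p = 0.611). In total RNA the U-added row took 0.565 and 0.523%, below both times, and in the negative extraction 1.86%.

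In miR-29a-3p, a guide that targets collagen and other matrix messages, the A-added row held 4.43, 4.0 and 4.51% at 0 h and 6.57, 8.13 and 6.94% at 12 h. The change was 0.77 in log2 odds (SE 0.107, adjusted p = 4.21e-05), and it passed under every one of 16 other settings. Its C-added row rose from 0.999 to 1.42% (0.54, adjusted p = 0.0446) and its mixed row from 3.18 to 4.76% (0.61, adjusted p = 0.00289), while its 5'-extended row fell from 7.57 to 6.0% (-0.37, adjusted p = 0.0186). The A-added row of miR-125a-5p held 3.09, 3.77 and 3.04% and then 4.17, 7.39 and 4.88% (0.72, SE 0.115, adjusted p = 0.000146). miR-221-5p, the passenger strand of miR-221, fell relative to the rest of the library, with a sum lower by 1.11 on the log2 scale. Its U-added row had 239, 174 and 138 counts at 0 h and 18, 9 and 23 at 12 h, a change of -1.01 in log2 odds (adjusted p = 0.0132; lost under 7 of 16 other settings), while its A-added row rose from 1.48 to 3.3% (1.18, adjusted p = 0.00529).

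The let-7 guides repress growth genes and share the seed GAGGUAG. They carried 8 of the 72 higher rows and 3 of the 57 lower rows, over 73 tested rows (median 0.00). Of their rows 15.1% were called, against 10.9% of all rows. The A-added rows of let-7a-5p (0.40), let-7c-5p (0.40), let-7g-5p (0.50) and miR-98-5p (0.59) rose against their other isoforms, with adjusted p from 0.00289 to 0.00492. Mixed rows rose in let-7b-5p, let-7c-5p and let-7g-5p. let-7f-5p, the most abundant miRNA on average over the 6 libraries, had no called row. At 12 h alone its mean was 107600 CPM, below the 127200 of miR-92a-3p. The canonical row of let-7f-5p held 78.8, 81.2 and 79.5% at 0 h and 77.9, 80.7 and 81.0% at 12 h, a change of 0.00 in log2 odds (SE 0.0834). Reads of near-identical let-7 members may have been divided among names, so single members are uncertain.

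The U-added rows that fell belonged to miR-30e-3p, miR-221-5p, miR-298-5p, miR-125b-1-3p, miR-100-5p, miR-99b-5p, miR-484, miR-423-3p, miR-151-3p and miR-92a-3p, by 0.34 to 1.03 in log2 odds. The 2 that rose came from the miR-322 hairpin on chromosome X, whose 5p arm is the mouse miR-424. The U-added row of miR-322-5p held 22.9, 25.9 and 27.7% at 0 h and 37.8, 33.6 and 39.0% at 12 h. Its canonical row held 71.3, 67.6 and 62.1% and then 56.6, 58.9 and 52.5%. Neither row overlapped between the times. The changes were 0.79 (SE 0.129, adjusted p = 0.000176) and -0.70 (SE 0.112, adjusted p = 0.000146), with a sum at 0.01 (adjusted p = 0.98). Without the block the adjusted p was 0.112 and 0.251, and with diffSpliceDGE it was 0.097 and 0.708. In total RNA the U-added row took 18.2 and 16.3% and in the negative extraction 16.9%, so the 12 h value lay on the far side of 0 h from all 3 controls. In miR-322-3p the U-added row rose from 60.9 to 68.9% (0.52, adjusted p = 0.021) although the sum fell by 0.92 on the log2 scale. The hairpin's next base after miR-322-5p is G.

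miR-322-5p also belongs to a list of 15 miRNAs reported as targets of target-directed degradation, the decay that an extensively paired target RNA sets off. Over that list 2 rows were higher and 3 lower of 64 tested (median 0.06), or 7.81% called, against 10.9% of all rows. The other called rows were miR-16-5p with A (-0.60) and with a templated extension (-0.43), both lower, and miR-30b-5p with a templated extension (0.98), with adjusted p from 0.0138 to 0.0478.

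Mixed 3' additions and C additions took a larger share of the pool at 12 h. Mixed rows had 16 higher (11.8%) and 2 lower (1.47%) of 136 (median 0.10), against 6.11% and 4.83% of all rows. C-added rows had 6 higher (13%) and 0 lower of 46 (median 0.34, with 14 and 2 at an unadjusted edgeR p under 0.05). limma on the log2 odds called 1 C-added row higher and 1 lower, and without the block or with diffSpliceDGE none was called in either direction. Without experiment 1 the mixed rows had 5 higher and 1 lower and the C-added rows 1 and 0; without experiment 3 they had 3 and 1, and 3 and 0. As a share of all counts, the mixed class went from 4.07, 5.33 and 5.48% at 0 h to 6.87, 9.32 and 7.87% at 12 h. The C class went from 0.468, 0.698 and 0.981% to 0.711, 1.57 and 1.20%. The mixed values did not overlap, and the C values did. Without the 10 most abundant miRNAs the mixed share changed by 0.0306 percentage points and the C share by 0.0266, against 3.05 and 0.447 with them.

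miR-92a-3p carried most of the mixed class. It has 2 loci in RefSeq, and no single run of next hairpin bases was obtained for it. The labels do not say how the table divides its templated from its mixed bases. In total RNA its mixed row took 53.3 and 59.7% and its templated extension 42.1 and 36.1%. Its mixed row held 43.5, 40.1 and 50.4% of the miRNA at 0 h and 52.7, 49.1 and 54.8% at 12 h, and its templated 3' extension 51.8, 54.4 and 44.8% and then 42.9, 45.3 and 40.3%. In each experiment the mixed row gained and the extension lost, and the groups overlapped in the mixed row. The changes were 0.44 (SE 0.117, adjusted p = 0.0149) and -0.44 (SE 0.115, adjusted p = 0.0138). Both calls were lost under 7 of 16 other settings, among them leaving out experiment 2 at 0 h (0.32 and -0.31, adjusted p = 0.125 and 0.123) or experiment 1 at 12 h (0.34 and -0.34, adjusted p = 0.119 and 0.112). All rows of this miRNA named here rose as single rows, mixed by 1.11 and extension by 0.64. The extension thus lost share within its miRNA while it rose relative to the rest of the library. Its A-added row rose by 0.55 in log2 odds (adjusted p = 0.00234) and its U-added row fell by 0.34 (adjusted p = 0.00556), each at a share under 2%.

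miR-21a-5p carried most of the C class. Its C-added row had 29232, 17686 and 41008 counts at 0 h and 20036, 16358 and 27837 at 12 h, or 10.8 ± 2.24% and then 13.2 ± 2.01% of the miRNA (SD, n = 3). The share rose in each experiment, with overlapping groups (0.34, SE 0.088, adjusted p = 0.0132), and the call was lost under 8 of 16 other settings. The next hairpin base after this miRNA is C, in capitals with the 2 bases after it:
miR-21a-5p with the next hairpin bases: uagcuuaucagacugauguugaCUG
A templated C and an added C have the same letters there, and the labels do not say how the table divides them. Among 28 miRNAs with a C next in the hairpin the median share of the C-added row was 0%, and miR-21a-5p, at 11.6% of its counts over the 6 libraries, was the highest. Among 107 miRNAs with another next base the median was 0.0699%. The mixed row of miR-21a-5p rose from 1.77 ± 0.101% to 2.46 ± 0.252% (SD, n = 3; 0.48, adjusted p = 0.000786) and its trimmed row fell from 2.04 ± 0.631% to 1.43 ± 0.647% (-0.58, adjusted p = 0.00234).

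In miR-301a-3p the mixed row lost share to the canonical row. It lies in an intron of Ska2, and its sum rose by 2.19 on the log2 scale. The canonical row had 429, 218 and 83 counts at 0 h and 631, 281 and 350 at 12 h, or 69.6, 81.0 and 77.6% and then 89.4, 90.6 and 92.3% of the miRNA. The mixed row went from 15.8 to 4.44%. The changes were 1.64 (SE 0.265, adjusted p = 0.000165) and -2.04 (adjusted p = 5.88e-05). The canonical call was lost under 2 of 16 other settings, with diffSpliceDGE (adjusted p = 0.897) and without experiment 1 (adjusted p = 0.0695). The mixed row had a log2 fold change of 0.12 as a single row (adjusted p = 0.865), against 2.38 for the canonical row. As a single row the canonical call was lost under 1 of 20 other settings, the fit without the block (adjusted p = 0.127).

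More templated extensions were called lower than higher. At the 3' end 4 rows were higher (2.37%) and 11 lower (6.51%) of 169 (median -0.07). At the 5' end 0 were higher and 5 lower (10.9%) of 46 (median -0.19). Over all rows 6.11% were higher and 4.83% lower. At an unadjusted edgeR p under 0.05 the 5' rows had 2 higher and 8 lower, limma on the log2 odds called 0 and 5, and diffSpliceDGE 0 and 3. Without experiment 1 or without experiment 3, 0 were higher and 1 lower. A templated 5' extension moves the seed by the added bases, so it changes which targets pair. The 5'-extended row of miR-671-3p, which overlaps exons of Chpf2 and, on the opposite strand, Smarcd3, had 585, 266 and 211 counts at 0 h and 69, 3 and 13 at 12 h. Its share was 11.5, 9.1 and 8.21% and then 6.33, 0.759 and 2.03%, without overlap (-1.58, SE 0.34, adjusted p = 0.00289). The 5'-extended row of miR-27b-3p held 0.162, 0.197 and 0.0869% at 0 h and 0.0726, 0.0994 and 0.0719% at 12 h (-0.79, adjusted p = 0.00289). The bases before these 5' ends in the hairpin are in capitals:
miR-671-3p with the preceding hairpin bases: UCCuccgguucucagggcuccacc
miR-27b-3p with the preceding hairpin bases: UUGuucacaguggcuaaguucugc
The remaining 5'-extended rows called lower were those of miR-222-5p, miR-29a-3p and miR-21a-5p. The class took 0.345, 0.385 and 0.392% of all counts at 0 h and 0.275, 0.301 and 0.307% at 12 h, lower in 3 of 3 experiments and without overlap.

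**Figure D4:**
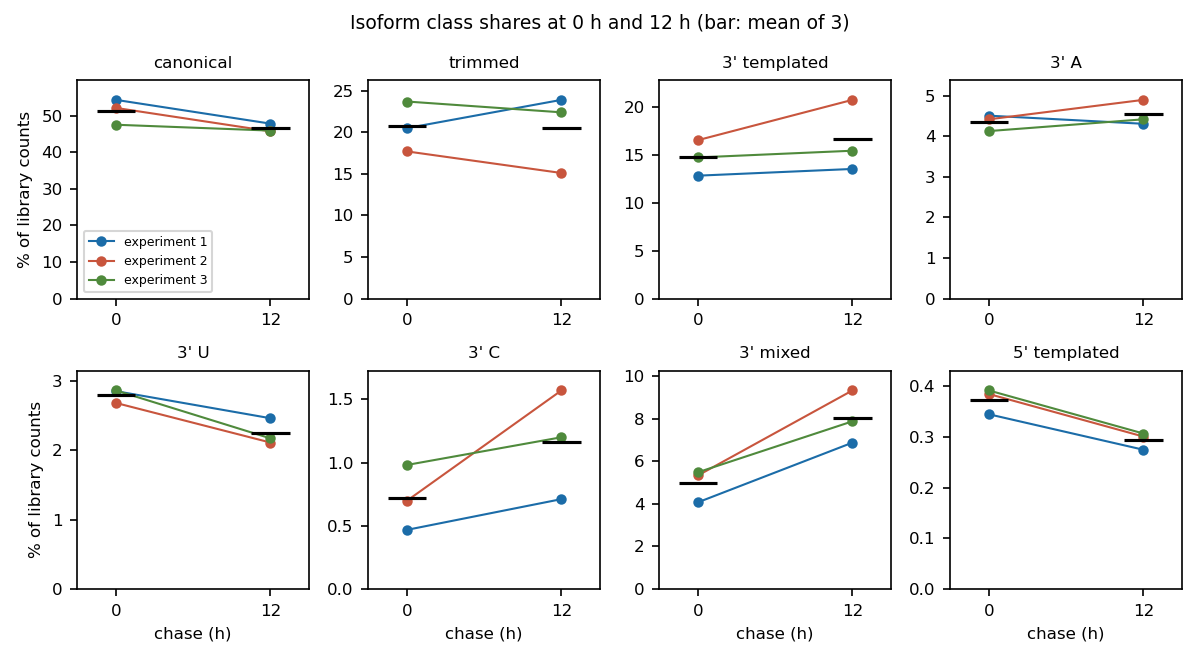
Share (% of all counts of the library) of 8 isoform classes at 0 h and 12 h of chase, with a coloured line per experiment and a black bar at the mean of 3. The mixed class is higher and the U and 5' templated classes are lower at 12 h in all 3 experiments without overlap, while the trimmed class moves in both directions.

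Over whole libraries the canonical class went from 51.3 ± 3.46% to 46.5 ± 1.14% and the U class from 2.79 ± 0.103% to 2.25 ± 0.186% (SD, n = 3), lower in 3 of 3 experiments. The A class was at 4.35 ± 0.198% and then 4.54 ± 0.313%, higher in 2 of 3, and the trimmed class at 20.7 ± 3.01% and then 20.5 ± 4.71%, higher in 1 of 3. An exact paired permutation test (two-sided) over 3 pairs cannot give a p below 0.25, the value for the canonical, U, C, mixed and templated classes; adjusted over the 10 classes it was 0.417. These shares follow the abundant miRNAs: without the 10 most abundant, the canonical share changed by 0.209 percentage points and the 3' templated share by -0.377, opposite in sign to -4.81 and 1.90 with them. The U share then changed by -0.0687, against -0.547 with them, the A share by 0.963, against 0.19, and the 5' templated share by -0.1, against -0.0795.

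Next to the isoforms, whole miRNAs rose and fell relative to the rest of the library. As single rows, 97 were higher and 124 lower of 1257 (7.72% and 9.86%, with 17.6% in all). Of these 221, 214 changed the same way in 3 of 3 experiments. Among all 1257 rows, 258 rose and 284 fell in 3 of 3. Of the 221, 55 were also called against their other isoforms, 51 in the same direction. Without the block 11 rows were called. By class, A-added rows had 19 higher and 5 lower of 134, U-added rows 5 and 17 of 115, and canonical rows 21 and 45 of 284. Scaling by library totals alone moved the median of all rows from 0.01 to -0.20 and gave 38 higher and 187 lower rows; A-added rows then had 10 higher and 9 lower, so their direction as single rows depends on the scaling, which does not enter the log2 odds.

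**Figure D5:**
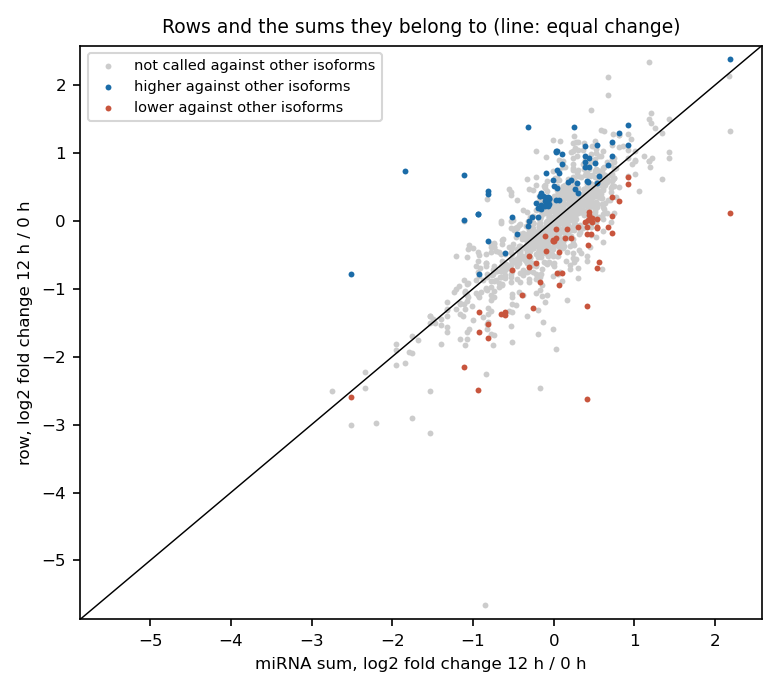
Log2 fold change from 0 h to 12 h of each row (vertical axis) against that of the sum of its miRNA (horizontal axis), both on the TMM scale. Coloured points, 72 blue and 57 red, changed against the other isoforms, so a distance from the line of equal change follows from how they were chosen. Some lie off the line where the sum is near 0, as in miR-155-5p. Others lie close to the line, such as miR-92a-1-5p canonical (-2.60, with a sum of -2.51).

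Among single rows called the same way in 3 of 3 experiments, with a mean of at least 10 CPM and at most 2 rows per miRNA, the largest log2 rises after miR-301a-3p canonical (2.38) were in miR-19b-3p trimmed (1.51), miR-3061-3p canonical (1.51), miR-92a-3p with A (1.41), miR-149-5p trimmed (1.30), miR-92a-3p with C (1.27), miR-21a-5p mixed (1.16) and miR-25-3p with a templated extension (1.12; 0.58 in log2 odds, adjusted p = 0.012). The largest falls were miR-92a-1-5p canonical (-2.60), miR-671-3p 5'-extended (-2.48), miR-669a-3p trimmed (-2.47) and canonical (-2.22), miR-221-5p with U (-2.15), miR-29b-1-5p with a templated extension (-2.10), miR-335-5p trimmed (-1.94) and miR-466d-3p with a templated extension (-1.91). Both rows of miR-669a-3p fell, with log2 odds changes of -0.25 and 0.19 that did not pass the test. The miR-669 and miR-466 names are near-identical repeats and are uncertain. In the oncogenic miR-17~92 cluster and its paralogs, 17 rows were higher and 1 lower of 66 (27.3% called, against 17.6% of all rows), and against their other isoforms 5 were higher and 4 lower of 65 (13.8%, against 10.9%). Of 411 passenger strands, 75 had no count in the 6 libraries. In the 113 that had a row tested, 9 rows were higher and 55 lower of 310 (20.6% called, against 17.6%). Against other isoforms, 14 rows were higher and 15 lower of 279 in 82 of them (10.4%, against 10.9%).

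miR-143-3p, a miRNA of smooth muscle and fibroblasts, had a sum that changed by 0.02 on the log2 scale (adjusted p = 0.925) and rows that moved apart. Its trimmed row held 35.9, 27.4 and 37.8% at 0 h and 51.4, 28.7 and 48.3% at 12 h (0.54, adjusted p = 0.0117), and its canonical row fell by 0.44 in log2 odds (adjusted p = 0.0186). Experiment 2 moved least, and both calls were lost under 8 of 16 other settings. In miR-27b-3p the trimmed row held 49.4, 43.4 and 61.6% and then 59.2, 51.2 and 63.9% (0.39, adjusted p = 0.012; lost under 7 of 16 other settings, among them those without the 0 h library of experiment 1 or 2 or the 12 h library of experiment 1), with overlapping groups and a sum higher by 0.43 on the log2 scale (adjusted p = 0.0243). Of 8 fibroblast marker miRNAs, all were present, at a summed 177211 to 258699 CPM at 0 h and 199413 to 233726 at 12 h. Against other isoforms, 6 of their rows were higher and 4 lower of 63 (15.9% called, against 10.9% of all rows). Blood markers summed to 205 to 505.9 CPM and then 266 to 543.2, epithelial markers to 361.5 to 1151 and then 216.7 to 501.3, neural markers to 422.5 to 544.4 and then 400.7 to 513.2, and muscle markers to 4.306 to 22.11 and then 1.765 to 9.475. Of these other lists only 1 row, miR-486a-5p with A among the blood markers, was called against its other isoforms (0.49, adjusted p = 0.0306). As single rows, fibroblast markers had 6 higher and 15 lower of 63 (33.3% called, against 17.6% of all rows). The falls were in miR-152-3p, miR-199a-3p and miR-214-3p and the rises in miR-21a-5p and miR-22-3p. Blood markers had 2 higher and 0 lower of 7, both of miR-486a-5p, and epithelial markers 0 higher and 4 lower of 8, all of miR-205-5p (edgeR). Their part in the results was not tested.

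Depth fell with the chase, from 7733333, 3019171 and 4613499 counts at 0 h to 3281631, 1133048 and 2533106 at 12 h, so a level of 3 counts was 0.388 to 0.994 CPM at 0 h and 0.914 to 2.648 CPM at 12 h. The negative extraction had 283922 counts. For 94 of 127 called rows (74%) the share in total RNA of unlabelled cells lay on the same side of the 0 h mean as the 12 h mean did, and for 68 of 98 (69.4%) the share in the negative extraction did, counting miRNAs with at least 100 counts there. Both sides were measured from the same 0 h mean, and only rows called for a change from 0 h were counted. These shares therefore cannot show whether the 12 h pool is like the controls. These are single libraries, and the part of unlabelled RNA in the changes was not tested. Header codes differ between experiments, and within experiment 1 the 0 h library has another code start than the later libraries, so that code and the time cannot be told apart in that experiment.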

How the data were processed

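Small RNA libraries of 4SU-labelled 3T9 RNA were read as the read counts that the authors deposited, whole numbers per miRNA and isoform class with no normalisation. The submitters' processing notes name CASAVA 1.8.0; for the alignment, the annotation and reads that match more than 1 miRNA, details were not given in the sources used here. Of 7129 entries, 1 duplicate and 1072 totals or repeats were removed, which left 6056 rows. Totals equalled the sums of their parts in every cell compared.

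Rows were tested with edgeR 4.0.16 (R 4.3.3) by the quasi-likelihood test with TMM factors, filterByExpr (minimum count 10, time points as groups) and the experiment as a block over all 21 labelled libraries, contrast 12 h minus 0 h, with Benjamini-Hochberg adjustment over all rows and a threshold of 0.05. For the test against other isoforms, the row and the rest of its miRNA gave 2 counts per library, with a term per library. SE is the size of the log2 value divided by the square root of F. Class shares were tested by an exact paired permutation test. Alternatives used limma 3.58.1 and DESeq2 1.42.0. Both tests across rows were also run on simulated data, and the outcome is not given here.

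Experiment numbers pair the libraries: deviations from the time means correlated at 0.4573, 0.4642 and 0.4337 between 0 h and 12 h of the same experiment and at -0.3716 to 0.02881 between different ones. The labels call the experiments independent, and p-values measure the spread between these libraries. Counting intervals and floors cover counting error only, since reads carry no molecular identifiers.

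Named rows were the 12 highest and 12 lowest log2 odds changes with at least 50 CPM, the 8 highest and 8 lowest log2 fold changes with at least 10 CPM, all past the threshold and the same way in 3 of 3 experiments, at most 2 per miRNA; up to 6 miRNAs with rows called in opposite directions; and rows of at least 1% in the 6 most abundant miRNAs. Rows named beside these, in lists or within their miRNA, were chosen after their values were seen. The members and lists were chosen with earlier results of these data known. Sequences are from RefSeq and genes from GENCODE M21, both on GRCm38, which may not be the build the authors used.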

Additional observations from a re-analysis of the deposited data

How the results depend on the processing

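The count of rows changed against their other isoforms was 129 with the experiment as a block and 19 with no replicate block, 43 with only the 6 libraries at 0 h and 12 h, 74 with no filter on low counts and 22 with diffSpliceDGE. It was 39 to 111 when an experiment or a library was left out: 39 without experiment 3, 42 without experiment 1, 80 without the 0 h library and 84 without the 12 h library of experiment 1. A minimum count of 50 gave 142 and limma on log2 odds 117. The count of rows changed at 12 h was 221 with the block and 11 with no replicate block, and 74 to 243 when an experiment or a library was left out: 74 without experiment 1, 77 without experiment 3 and 146 without the 12 h library of experiment 3. It was 149 with only the 6 libraries, 175 with no filter and 192 at a minimum count of 50. Scaling changed the split: 38 higher and 187 lower with library totals only, 122 and 101 with upper-quartile factors, and 109 and 109 with factors from miRNA sums; DESeq2 gave 105 and 134. Among the counts of rows changed at 12 h, the 243 came from leaving out experiment 2. The causes of these differences between settings were not tested. No named row that passed the threshold changed sign under these settings. Some named rows that had not passed it did, such as miR-335-3p trimmed as a single row (-0.19 to 0.40) and let-7f-5p canonical as a single row (-0.28 to 0.32).

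The exact test used for class shares cannot pass the threshold with 3 pairs. The canonical share changed by 0.209 and the 3' templated share by -0.377 percentage points without the 10 most abundant miRNAs, and the 3' templated share by -0.100 as a median over miRNAs. The trimmed share changed by -1.95 to 1.05 when an experiment was left out, 1.05 without experiment 2 and 0.395 without experiment 3. The 3' G share changed by -0.00361 (without experiment 2) to 0.0181, and the 5' C share by -0.0021 to 4.39e-05 (without experiment 2) and by 0.00028 as a median over miRNAs. At 12 h the depth of experiment 2 limits rows of a few counts: a level of 3 counts was 2.648 CPM there.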
